A study of Homo sapiens with 3 samples.

Results

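PARP9, DTX3L, PARP10, PARP12, PARP14, PARP1 and PARP2 were followed in HEC1B, an established cell line from a human endometrial cancer. They are 7 of the 26485 genes in the count table and were matched by gene name. The members were chosen by their counts in these same libraries, so their counts and ratios are given as a description, with no test. PARP9, DTX3L, PARP10, PARP12 and PARP14 were chosen as interferon-induced genes, and PARP1 and PARP2 as constitutive members of the family. Total RNA was sequenced from 3 libraries at 48 h. The PRMT6 knockdown group held 2 libraries with the genotype label PRMT6 knockdown, made with the different siRNAs siPRMT6-1 and siPRMT6-2. The siNC control group held 1 library with the genotype label WT, made with the siRNA called siNC. Each siRNA thus had 1 library and no replicate. The libraries address how gene expression responds when PRMT6, an enzyme that methylates arginines of histones and other proteins, is reduced.

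Enzymes of the PARP family transfer ADP-ribose from NAD onto proteins or nucleic acids. PARP1 and PARP2 build chains of ADP-ribose at DNA breaks and are made in most cells. PARP10, PARP12 and PARP14 add single ADP-ribose units, and their genes and those of PARP9 and DTX3L are known targets of interferon signalling. PARP9 works in a complex with DTX3L, a ubiquitin ligase of the Deltex family. Interferon bound to its receptors activates STAT proteins, which with IRF9 bind the interferon-stimulated response element (ISRE), a pair of GAAA-type repeats.

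Promoter sequences are shown because they differ between the interferon-induced and the constitutive members in a feature that the counts do not enter. The interferon-induced members were chosen as such, so this difference is tied to that choice and is only a description. RefSeq promoter windows on GRCh38.p14, 300 bases long, were matched for 6 of the 7 members by symbol, and PARP10 had no match. The motif GAAA, any 2 bases, GAAA, searched on both strands with overlaps allowed, was found in the windows of PARP9, DTX3L, PARP12 and PARP14, and in neither window of PARP1 and PARP2. It stands in 3.57% of all 34943 RefSeq windows. Each line below runs from 150 bases before the gene's start to 20 bases from it, on the gene's own strand, and capitals mark the motif or its reverse complement.
DTX3L, chr3:122564188-122564357, plus strand: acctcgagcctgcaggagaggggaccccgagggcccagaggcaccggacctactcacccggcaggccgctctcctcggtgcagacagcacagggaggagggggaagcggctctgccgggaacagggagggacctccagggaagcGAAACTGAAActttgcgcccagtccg
PARP14, chr3:122680689-122680858, plus strand: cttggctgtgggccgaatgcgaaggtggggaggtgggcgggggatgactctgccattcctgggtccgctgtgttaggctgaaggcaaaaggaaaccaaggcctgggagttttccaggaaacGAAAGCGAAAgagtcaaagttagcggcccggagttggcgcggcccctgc
PARP12, chr7:140062932-140063101, minus strand: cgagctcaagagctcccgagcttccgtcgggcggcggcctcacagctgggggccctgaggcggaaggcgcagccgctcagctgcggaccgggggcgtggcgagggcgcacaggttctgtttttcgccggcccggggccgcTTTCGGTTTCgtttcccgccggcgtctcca
PARP1, chr1:226408074-226408243, minus strand: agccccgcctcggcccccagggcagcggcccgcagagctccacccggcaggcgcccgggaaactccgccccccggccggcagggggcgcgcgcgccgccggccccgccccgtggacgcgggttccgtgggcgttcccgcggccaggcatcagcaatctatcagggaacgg

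The match in PARP9 and the match in DTX3L are the same 10 bases, at chr3:122564332-122564341. They begin 6 bases before the DTX3L start and 41 bases before a PARP9 start that lies on the other strand. PARP9 has a further window in the table, from 122564735 to 122565034, which holds no match. The matches begin 29 bases before the start of PARP14 and 10 bases before that of PARP12, whose gene model in the count table begins further upstream, at 140063721. The motif TTC, any 3 bases, GAA, the form of a gamma-activated site, reads the same on both strands and was found in the windows of PARP14 and PARP2, against 7.66% of all windows. In PARP14 it ends just before the ISRE-type motif, at 122680807, and the ISRE-type motif begins at 122680810. A match of letters is a description and not a measured binding site, and no binding was measured in these libraries.

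PARP9 and DTX3L lie head to head on chromosome 3. In the hg38 gene models of the count table PARP9 runs from 122527911 to 122564676 on the minus strand and DTX3L from 122564338 to 122575202 on the plus strand. They share 185 exon bases on opposite strands, 2.32% of the exon bases of PARP9 and 3.21% of those of DTX3L. Each gene has a single count per library, so reads from the shared bases cannot be separated from the rest. Set against the GENCODE release 29 annotation, 285 exon bases of the PARP9 model in the count table overlap GENCODE exons of DTX3L, and 139 exon bases of the DTX3L model overlap GENCODE exons of PARP9. PARP10, PARP12, PARP14 and PARP1 shared no exon bases with an opposite-strand gene in the count table or in GENCODE. PARP2 shared none in the count table and 72 and 26 bases with 2 antisense genes of GENCODE.

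**Figure D1:**
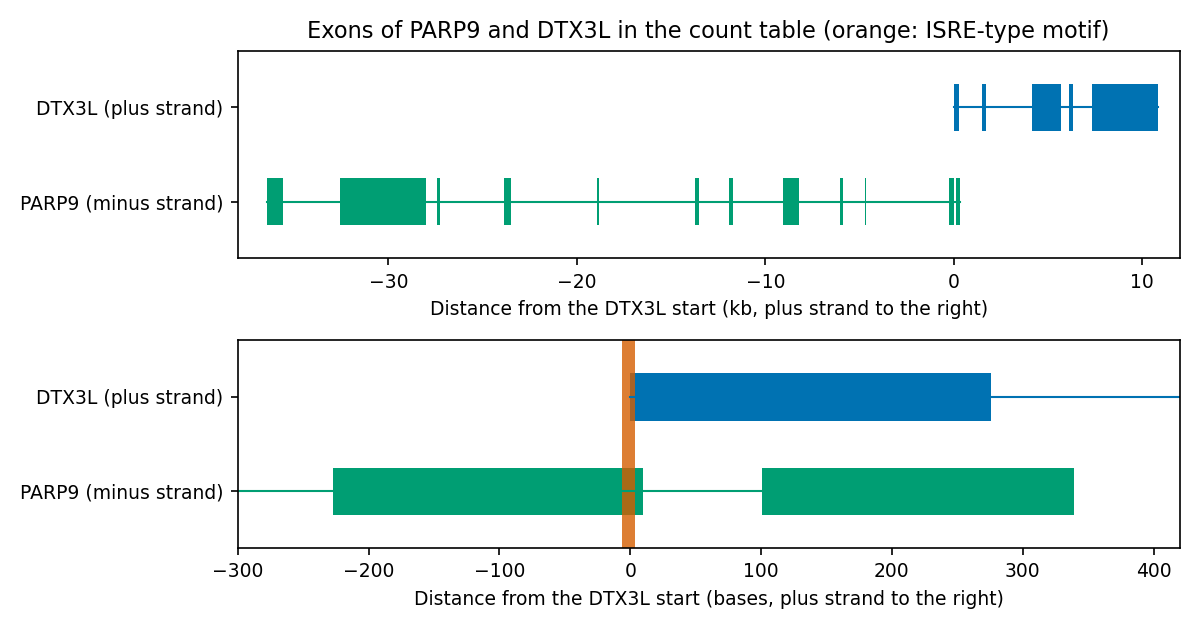
Exons of DTX3L (blue, plus strand) and PARP9 (green, minus strand) against the distance from the DTX3L start, in kb above and in bases below, with the ISRE-type motif in orange. The motif lies where the first exon of DTX3L begins, inside an exon of PARP9, and the genes share 185 exon bases.

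The libraries held 381628 counts with siPRMT6-1, 362080 with siPRMT6-2 and 410916 with siNC, so 3 counts equal 8.09, 9.09 and 7.78 CPM in that order (counts scaled to library depth by TMM). PRMT6 itself had 4 counts with siPRMT6-1, 7 with siPRMT6-2 and 25 with siNC. The titles and descriptions in the labels number the siRNAs differently, so which siRNA a value belongs to depends on those labels. Of the epithelial markers KRT8, KRT18, KRT19, EPCAM, CDH1 and PAX8, KRT19 and CDH1 were at 0 in all libraries, and the list held 888, 1096 and 1621 counts with siPRMT6-1, siPRMT6-2 and siNC. KRT8, which shares exon bases with KRT18 on the opposite strand, made up most of these, with 681, 770 and 1329. PAX8, opposite PAX8-AS1, had 117, 227 and 158. In 178 pairs, a gene with an antisense name was set against the gene it overlaps on the other strand, and the antisense gene had more counts in 149 pairs with siPRMT6-1, 149 with siPRMT6-2 and 147 with siNC. VIM-AS1 for instance had 9718, 14307 and 12493 counts where VIM, the gene of an abundant intermediate filament protein, had 291, 392 and 312. Which strand a count stands for is therefore uncertain for all 7 genes, with or without a partner. A count may stand for RNA of the strand opposite to its gene. A count is given with its exact Poisson interval and a CPM ratio of 2 libraries with its exact binomial interval, both at 95% and both covering counting error only.

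The 5 interferon-induced members were high in the siPRMT6-2 library. Their summed counts were 87 with siPRMT6-1 (interval 69.7 to 107), 686 with siPRMT6-2 (636 to 739) and 81 with siNC (64.3 to 101). The siPRMT6-2 interval lies above both others, which overlap each other. The CPM ratio of the sum to siNC was 1.12 for siPRMT6-1 (0.816 to 1.53) and 9.90 for siPRMT6-2 (7.85 to 12.6), so no difference of siPRMT6-1 from siNC was detectable at this depth. Set against siPRMT6-1, the siPRMT6-2 library was 8.86 times higher (7.08 to 11.2). Over both siRNAs the mean log2 ratio of the sum to siNC was 1.73 ± 2.23 (SD, n = 2), a spread larger than the mean. Without siPRMT6-2 this value is 0.16, and without siPRMT6-1 it is 3.31. In RNA from whole cultures, more RNA per cell and more cells that make it cannot be told apart.

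PARP9, which binds ADP-ribose through macrodomains and has little transferase activity of its own, held most of these counts. It had 64 counts with siPRMT6-1 (49.3 to 81.7), 514 with siPRMT6-2 (471 to 560) and 54 with siNC (40.6 to 70.5). The siPRMT6-2 library stood apart and the other two overlapped. The CPM ratio to siNC was 1.23 with siPRMT6-1 (0.845 to 1.81) and 11.1 with siPRMT6-2 (8.40 to 15.02). Of the summed counts of the 5 genes PARP9 made up 73.6% with siPRMT6-1, 74.9% with siPRMT6-2 and 66.7% with siNC, so each sum follows PARP9 first of all. Without PARP9 the sum was 23, 172 and 27 counts, and its CPM ratio to siNC was 0.887 for siPRMT6-1 (0.486 to 1.61) and 7.45 for siPRMT6-2 (4.94 to 11.6).

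DTX3L had 6 counts with siPRMT6-1 (2.20 to 13.1), 61 with siPRMT6-2 (46.7 to 78.4) and 8 with siNC (3.45 to 15.8). As for PARP9, the counts with siPRMT6-1 and siNC overlapped and those with siPRMT6-2 lay above both. The CPM ratio to siNC was 0.781 with siPRMT6-1 (0.223 to 2.57) and 8.91 with siPRMT6-2 (4.25 to 21.6). DTX3L held 8.57% of the counts of the PARP9 and DTX3L pair with siPRMT6-1 (exact binomial interval 3.21 to 17.7%), 10.6% with siPRMT6-2 (8.21 to 13.4%) and 12.9% with siNC (5.74 to 23.9%). These intervals overlap. Counting was done by strand, at setting 1, but antisense genes had more counts in most of the 178 pairs above. Counts assigned to PARP9 may thus come from plus-strand RNA, which over the 185 shared exon bases would include RNA of DTX3L. Those assigned to DTX3L may likewise come from minus-strand RNA. The DTX3L percentages therefore describe assigned counts, and the RNA of PARP9 and DTX3L may be split otherwise. Together the pair had 70 counts with siPRMT6-1, 575 with siPRMT6-2 and 62 with siNC. In CPM the pair with siPRMT6-2 was 10.8 times siNC (8.33 to 14.3).

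PARP10, a mono-ADP-ribosyltransferase encoded on chromosome 8 (143977152 to 143986467, minus strand), had the lowest ratio of siPRMT6-1 to siNC of the 5 genes. It had 6 counts with siPRMT6-1 (2.20 to 13.1), 49 with siPRMT6-2 (36.3 to 64.8) and 13 with siNC (6.92 to 22.2). Again only the interval with siPRMT6-2 lay apart. The CPM ratio to siNC was 0.480 with siPRMT6-1 (0.150 to 1.35), which takes in 1, and 4.41 with siPRMT6-2 (2.35 to 8.85). Set against siPRMT6-1, the level with siPRMT6-2 was 9.17 times higher (3.93 to 26.2).

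PARP12, a zinc finger mono-ADP-ribosyltransferase with antiviral activity encoded on chromosome 7 (140023744 to 140063721, minus strand), had the lowest count of the 5 in the control. It had 6 counts with siPRMT6-1 (2.20 to 13.1), 36 with siPRMT6-2 (25.2 to 49.8) and 1 with siNC (0.0253 to 5.57). The siPRMT6-2 count lay apart from both others, and the siPRMT6-1 and siNC intervals overlapped. With a single count in siNC the ratio is loose, at 6.24 with siPRMT6-1 (0.758 to 287) and 42.1 with siPRMT6-2 (7.09 to 1708). The ratio of siPRMT6-2 to siPRMT6-1 was 6.74 (2.81 to 19.6).

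PARP14, a large macrodomain protein known as a coactivator of STAT6, lies on chromosome 3 (122680825 to 122730840, plus strand). It had 5 counts with siPRMT6-1 (1.62 to 11.7), 26 with siPRMT6-2 (17.0 to 38.1) and 5 with siNC (1.62 to 11.7). The knockdown library siPRMT6-1 and the control had equal counts, and siPRMT6-2 lay above both. The CPM ratio to siNC was 1.04 with siPRMT6-1 (0.240 to 4.52) and 6.08 with siPRMT6-2 (2.30 to 20.3).

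PARP1, which makes most of the poly-ADP-ribose at DNA breaks, went the other way. The gene (chromosome 1, 226360691 to 226408100, minus strand) had 46 counts with siPRMT6-1 (33.7 to 61.4), 26 with siPRMT6-2 (17.0 to 38.1) and 64 with siNC (49.3 to 81.7). The intervals with siPRMT6-2 and siNC did not overlap, and the interval with siPRMT6-1 overlapped both. The CPM ratio to siNC was 0.748 with siPRMT6-1 (0.501 to 1.11) and 0.475 with siPRMT6-2 (0.289 to 0.760). It was chosen as a constitutive member, but its level was lower in the siPRMT6-2 library, which has no replicate. PARP2 (chromosome 14, 20343614 to 20357904, plus strand) had 1 count with siPRMT6-1, 0 with siPRMT6-2 and 2 with siNC. All 3 values lie at or under the floor of 3 counts, so no ratio is given and PARP2 tells nothing of constitutive expression here.

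**Figure D2:**
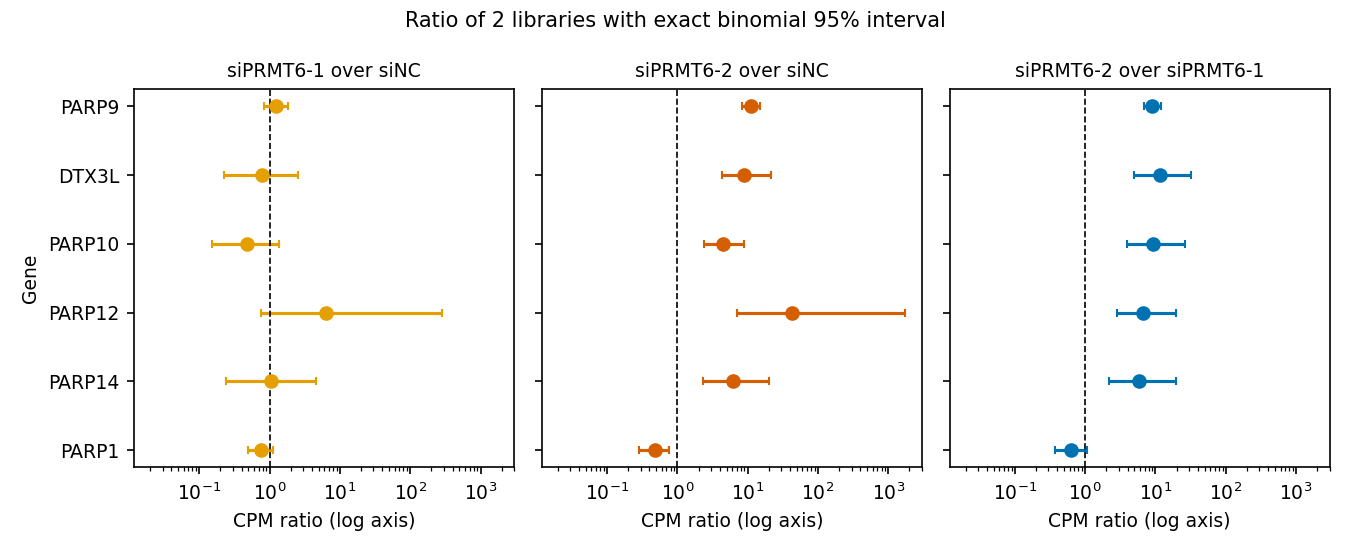
CPM ratios of 2 libraries on a log axis for the 6 members above the floor, with exact binomial 95% intervals as bars and a dashed line at a ratio of 1. With siPRMT6-1 over siNC all 6 intervals take in 1, and with siPRMT6-2 over siNC the 5 interferon-induced members lie above 1 and PARP1, at 0.475, lies below it.

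Levels of different genes were compared as CPM per kb of exon. Since the counted strand is uncertain, these are levels of assigned counts, and the genes' own RNA may rank otherwise. With siNC, PARP1 was highest at 41.6 CPM per kb, PARP9 followed with 17.5 and PARP10 with 9.58, and DTX3L had 3.60, PARP2 2.75, PARP14 1.68 and PARP12 0.683. The Poisson interval of PARP1 lay above that of PARP9, and from PARP9 on every gene overlapped its neighbours in this order. With siPRMT6-1 the order began likewise with PARP1 at 31.1 and PARP9 at 21.6 CPM per kb. There the interval of PARP1 overlapped that of PARP9, and both lay above that of PARP10. PARP10, PARP12, DTX3L, PARP14 and PARP2, from 4.60 down to 1.43, overlapped one another from each gene to the next.

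With siPRMT6-2, PARP9 led at 195 CPM per kb, again in assigned counts. PARP10 followed at 42.2, DTX3L at 32.0, PARP12 at 28.7, PARP1 at 19.8 and PARP14 at 10.2 CPM per kb. The interval of PARP9 lay above all others, and from PARP10 to PARP14 each gene overlapped the next. PARP2, with 0 counts, came last, and its interval lay below that of PARP14. The level of PARP9 there was at or above that of 96.9% of the genes with a count in that library, against 78.0% with siPRMT6-1 and 74.4% with siNC. For PARP1 these shares were 83.9% with siPRMT6-1, 75.7% with siPRMT6-2 and 87.6% with siNC.

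**Figure D3:**
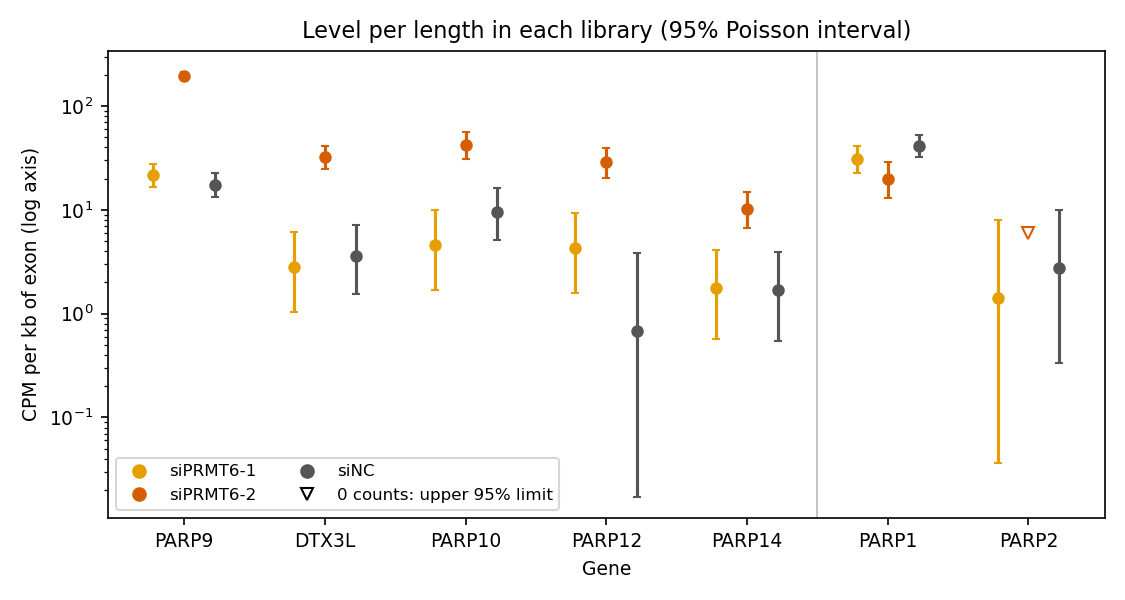
Level of each member in CPM per kb of exon, on a log axis, in the siPRMT6-1, siPRMT6-2 and siNC libraries, with exact Poisson 95% intervals as bars and an open triangle for the upper limit where the count was 0. The siPRMT6-2 point lies above both other libraries for the first 5 genes and below both for PARP1.

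Across all genes, the edgeR quasi-likelihood test of both PRMT6 knockdown libraries against siNC called 0 of 6803 genes (0%), and the lowest adjusted p rounded to 1.00. Before adjustment 186 genes had a p under 0.05. DESeq2 called 0 genes, with 13 before adjustment. As neither test called any gene at all, the lack of a call in a list below says nothing about that list. Of the 7 members 6 passed the filter on low counts. DTX3L, PARP12 and PARP14 passed only through their counts in siPRMT6-2, so they had to be high there. PARP2 did not pass. On log2 CPM with a prior count of 2, a fold of at least 2 above siNC was reached with siPRMT6-2 by 5 of these 6 members, where 8.16% of all tested genes reached it, and with siPRMT6-1 by PARP12 alone, where 4.89% did. A fold of at least 4 above siNC was reached with siPRMT6-2 by PARP9, DTX3L, PARP12 and PARP14, where 1.68% of all tested genes did. PARP10 stayed just under that threshold on this scale. A fold of at least 2 below siNC was reached with siPRMT6-2 by PARP1, where 5.38% of all tested genes did. These counts describe how the members were chosen and are no support for an effect.

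The remaining genes of the PARP family were mostly low, and a single tested one reached a fold of at least 2 above siNC. Of 11 listed, 4 passed the filter and none was called by the edgeR test (lowest adjusted p = 1.00). PARP15, the neighbour of DTX3L, and PARP16 had 0 counts in all libraries. With 3 counts as the limit that a count of 0 allows, one-sided, this is up to 8.09, 9.09 and 7.78 CPM with siPRMT6-1, siPRMT6-2 and siNC. The limit holds for assigned counts and need not bound the RNA of these genes, as the counted strand is uncertain. ZC3HAV1, which encodes the zinc finger antiviral protein and is also called PARP13, had 21 counts with siPRMT6-1, 120 with siPRMT6-2 and 21 with siNC. Its CPM ratio to siNC was 1.04 for siPRMT6-1 (0.541 to 2.00) and 6.68 for siPRMT6-2 (4.18 to 11.2). It was the 1 of the 4 tested genes of this list with a fold of at least 2 in either library. Above siNC, 4.89% of all tested genes reached that fold with siPRMT6-1 and 8.16% with siPRMT6-2. A list of 4 genes is too small to be set apart from these shares. PARP4, known from vault particles, had 20, 23 and 21 counts, and the tankyrase gene TNKS had 17, 18 and 19. The 4 tested genes had a median log2 fold change of −0.05 with siPRMT6-1 and 0.59 with siPRMT6-2, beside 0.01 and 0.01 for all genes tested. They include a gene that passed the filter only through siPRMT6-2. None of the 9 genes of this list with a promoter window held the ISRE-type motif, which for so few genes is near the 3.57% of all windows. The motif with the form of a gamma-activated site, in 7.66% of all windows, was found for PARP15 and ZC3HAV1.

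Genes that remove ADP-ribose showed no common direction. Of 9 listed hydrolases 2 passed the filter and none was called. ADPRHL2, a serine ADP-ribose hydrolase, had 5 counts with siPRMT6-1, 13 with siPRMT6-2 and 5 with siNC, 3.04 times siNC in CPM with siPRMT6-2 (1.02 to 10.9). MACROD1 had 9, 8 and 19 counts, with CPM ratios to siNC of 0.493 for siPRMT6-1 (0.196 to 1.14) and 0.492 for siPRMT6-2 (0.186 to 1.18). PARG, which degrades ADP-ribose chains, had 8, 5 and 5 counts. The 2 tested genes had median log2 fold changes of −0.42 with siPRMT6-1 and 0.20 with siPRMT6-2. ADPRHL2 passed the filter only through siPRMT6-2, so it had to be high there.

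Of the other Deltex ubiquitin ligases none was high with siPRMT6-2. DTX1 had 8 counts with siPRMT6-1, 1 with siPRMT6-2 and 16 with siNC, with CPM ratios to siNC of 0.520 for siPRMT6-1 (0.193 to 1.29) and 0.0731 for siPRMT6-2 (0.00174 to 0.470). DTX3 had 13, 14 and 21 counts and DTX2, which shares exon bases with FDPSP2 on the opposite strand, had 9, 4 and 5. The medians of the 2 tested genes were −0.68 with siPRMT6-1 and −1.39 with siPRMT6-2, and neither was called.

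The STATs and interferon receptor genes, upstream of the ISRE, were in part high with siPRMT6-2. Of 11 listed 8 were tested and none was called. A fold of at least 2 above siNC was reached by 2 of the 8 with siPRMT6-1 and 3 with siPRMT6-2, beside the 4.89% and 8.16% of all tested genes. STAT2 and IRF1 are among those past the fold with siPRMT6-2. They passed the filter only through that library, so they had to be high there. These counts and the medians of the list are thus a description and no support for an effect. STAT2, which forms the ISRE-binding complex with IRF9, had 4 counts with siPRMT6-1, 27 with siPRMT6-2 and 6 with siNC, and its CPM ratio to siNC was 5.26 with siPRMT6-2 (2.13 to 15.6). STAT3 had counts of 10, 17 and 4 and the transcription factor gene IRF1 6, 18 and 2. The ratio of STAT3 to siNC was 2.60 with siPRMT6-1 (0.750 to 11.4) and 4.97 with siPRMT6-2 (1.62 to 20.3), and that of IRF1 was 3.12 (0.558 to 31.6) and 10.5 (2.52 to 93.5). STAT6, which shares exon bases with NAB2 on the opposite strand, had 20, 24 and 19 counts, and IFNGR2, opposite TMEM50B, 31, 18 and 23. The kinase gene JAK1, opposite RAVER2, had 17, 17 and 19. For genes that are no member, opposite strands were looked up in the count table alone. The medians of the 8 genes were 0.39 with siPRMT6-1 and 0.81 with siPRMT6-2. The ISRE-type motif was found in none of the 10 genes of this list with a promoter window, IRF1 among them. As 3.57% of all windows hold it, none among so few is near that share. The motif with the form of a gamma-activated site, in 7.66% of all windows, was found for IRF1 and IRF9.

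Genes that work with PARP1 and PARP2 at DNA breaks, and genes that make the NAD all these enzymes use, were mostly too low to test. Of 8 repair genes 2 were tested, none was called, and neither reached a fold of 2 with either siRNA. Of all tested genes 4.89% reached it above siNC with siPRMT6-1 and 8.16% with siPRMT6-2. The scaffold gene XRCC1 had 21 counts with siPRMT6-1, 15 with siPRMT6-2 and 11 with siNC, the DNA ligase gene LIG3 had 18, 19 and 17, and the untested TDP1, whose enzyme repairs blocked DNA ends, had 1, 6 and 7. The median of XRCC1 and LIG3, as a log2 fold change, was 0.50 with siPRMT6-1 and 0.47 with siPRMT6-2, where PARP1 had −0.40 and −1.02 on the same scale. Of 8 NAD synthesis genes 2 were tested, with medians of 0.02 and 0.40 and no call. NAMPT, the rate-limiting enzyme of NAD salvage, had 6, 15 and 5 counts, 3.51 times siNC in CPM with siPRMT6-2 (1.21 to 12.3). It passed the filter only through siPRMT6-2, so it had to be high there. QPRT had 26, 16 and 31 counts, and NMNAT1 8, 5 and 4.

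**Figure D4:**
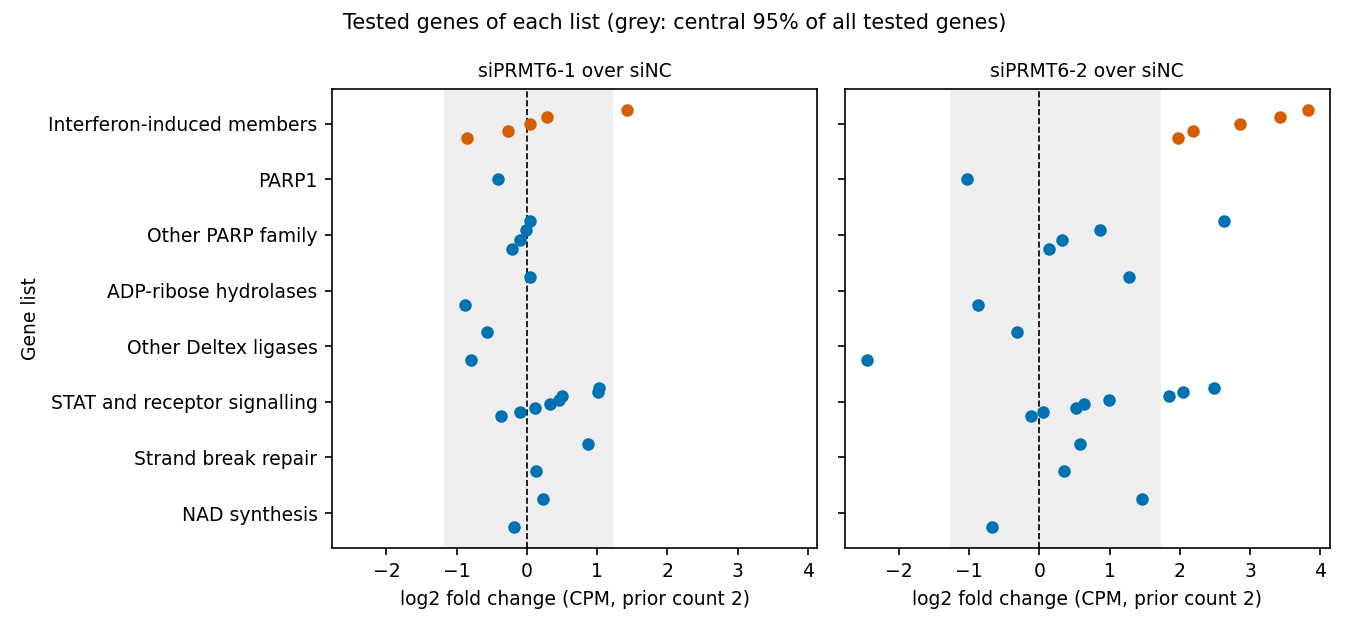
Log2 fold change over siNC, from CPM with a prior count of 2, of each tested gene by list, with siPRMT6-1 on the left and siPRMT6-2 on the right, and the central 95% of all tested genes in grey. With siPRMT6-2 the 5 interferon-induced members all lie to the right of the grey band, as do ZC3HAV1 and 3 of the STAT and receptor genes, and DTX1 lies to its left. With siPRMT6-1 PARP12 alone lies outside the band.

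The neighbourhood of PARP9, DTX3L and PARP14 on chromosome 3 was mostly not measurable. Within 250 kb of the span from PARP9 to PARP14 there are 15 genes, of which 5 had 0 counts in all libraries and 4 had at least 20 counts in sum. The 1 of these 4 that is no member was KPNA1, an importin gene that lies beyond the far end of PARP9. It had 12 counts with siPRMT6-1, 12 with siPRMT6-2 and 17 with siNC, and its CPM ratio to siNC was 0.735 for siPRMT6-1 (0.320 to 1.63) and 0.825 for siPRMT6-2 (0.360 to 1.83). The siPRMT6-2 intervals of PARP9 and DTX3L lie above that of KPNA1 and that of PARP14 lies above it as well.

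The split of CPM over the 3 libraries was used to name the genes with the most similar pattern. The summed 5 members had 9.30% of their CPM in siPRMT6-1, 82.4% in siPRMT6-2 and 8.32% in siNC. Among 2310 other genes with at least 50 counts and no opposite-strand exon bases, the 4 nearest by Euclidean distance of the shares were CSF1, PML, HIST1H4K and ACO1, at distances from 0.0194 to 0.0358. CSF1, a macrophage growth factor gene, had 5 counts with siPRMT6-1, 48 with siPRMT6-2 and 6 with siNC. PML, which forms the nuclear bodies named after it, had 7, 66 and 7, the histone gene HIST1H4K 5, 48 and 7, and the aconitase and iron regulator gene ACO1 11, 71 and 10. HIST1H4K has near-identical relatives with which it can share reads. The measure rests on 3 libraries, and the members themselves lay at distances of 0.0123 for PARP9, 0.0245 for DTX3L, 0.0771 for PARP12, 0.0921 for PARP14 and 0.115 for PARP10. PARP1 lay at 0.752, with 33.6% of its CPM in siPRMT6-1, 21.4% in siPRMT6-2 and 45.0% in siNC.

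Markers of other cell types were also summed. The 6 leukocyte markers had 19 counts with siPRMT6-1, 57 with siPRMT6-2 and 17 with siNC. CD68, a lysosomal gene that other cells express too, held all of these but 1, with 19, 56 and 17 counts. PTPRC, CD3E, CD14 and LST1 were at 0 in all libraries and LYZ had 0, 1 and 0 counts. Of the 6 fibroblast markers COL1A2, COL3A1, DCN and LUM were at 0 in all libraries, and the list held 360, 373 and 524 counts, nearly all of COL1A1.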

How the data were processed

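Per the labels' protocols, total RNA was purified on columns and sequenced with a kit that marks strand and takes little input. The submitters' processing notes name STAR 2.7.8a, featureCounts 2.0.10 and hg38. The table the authors deposited gives raw counts for each gene, as whole numbers. Per the file headers they were made with featureCounts 2.0.1 at strand setting 1, counting pairs over exons of UCSC hg38 gene models, and adding a read to every overlapping gene. The aligned files' names mark UMI-based removal of duplicates, with no detail given in the sources used here.

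Library sizes were TMM-normalized (edgeR 4.0.16, R 4.3.3). Ratios divide CPM of 2 libraries without a prior count. Fold thresholds used log2 CPM with a prior count of 2. The quasi-likelihood test compared the 2 knockdown libraries with siNC at 1 residual degree of freedom, assuming the lone control varies like them, with filterByExpr (minimum count 10, total 15), Benjamini-Hochberg adjustment and a threshold of 0.05. DESeq2 1.42.0 was an alternative. Nothing in the labels says that libraries came from separate cultures, so a p-value here covers only how much these 3 libraries varied. The members and lists were chosen with earlier results of these data known. Genes named from a list are its 3 with most counts, and those with at least 20 counts in sum and a fold of 2 with both siRNAs or 4 with either. Protein sequences were not analysed here, and a few listed genes are not reported here.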

Additional observations from a re-analysis of the deposited data

How the results depend on the processing

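The edgeR quasi-likelihood test called 0 genes also with DESeq2's size factors, without the filter on low counts and without genes whose exons overlap a gene on the other strand, and DESeq2 called 0. With the older dispersion estimate the quasi-likelihood test called 32 genes, and the likelihood ratio test called 31, each of them higher in knockdown; the cause was not tested. Without PARP9 and DTX3L, which overlap on opposite strands, the CPM ratio of the summed members was 6.83 with siPRMT6-2 over siNC, and 3 members in place of 5 reached a fold of 2, since only PARP10, PARP12 and PARP14 are left. Without PARP9 that ratio was 7.45. The mean log2 ratio over both siRNAs ranged from 0.16 to 3.31 when either knockdown library was left out. With siPRMT6-1 over siNC the ratio of the sum lay on the other side of 1 without PARP9, at 0.887, and without PARP9 and DTX3L, at 0.931, with intervals that take in 1. The summed counts of PARP9 and DTX3L alone, an alternative chosen after seeing the data, gave 10.8 with siPRMT6-2. The 36 ratios of single members under DESeq2's size factors or total counts stayed within their main intervals. No paired analysis was possible because the control has a single library. Counts under 15 in siPRMT6-1 and siNC limit what can be said of DTX3L, PARP10, PARP12 and PARP14 there.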
